A study of Mus musculus with 12 samples.

Results

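The 26 genes described here encode GABA-A and GABA-B receptor subunits, scaffold and adhesion proteins of inhibitory synapses, chloride transporters, and proteins that take up or break down GABA. They were chosen by symbol, and all 26 were found among the 21523 protein-coding genes of the RefSeq mouse gene table on the 19 autosomes and X. For each gene, c-Fos peaks were counted whose midpoint lay inside the gene or within 100 kb of it. Binding was profiled by CUT&RUN, an assay that frees and sequences the DNA next to an antibody-tethered nuclease, with a c-Fos antibody or, as the negative control, rabbit IgG. Nuclei came from CA1, a pyramidal cell field of the hippocampus, of C57BL/6 mice aged 3 to 4 weeks with the genotype CaMK2a-Cre/+; LSL-Sun1-GFP/+. In these mice the CaMK2a promoter drives Cre, which switches on a GFP tag of the nuclear envelope, mainly in excitatory neurons, and tagged nuclei were sorted, 50000 per reaction. Treatment was with kainic acid, which activates glutamate receptors and causes seizure-like firing, or PBS for 2 to 3 h, and each of the 4 groups (kainic acid or PBS, c-Fos or IgG) had 3 replicates. The data analysed here were 1 list of 3295 peaks, named as replicated peaks of c-Fos against IgG after kainic acid, of which 3294 lay on the chromosomes used. The list holds positions only. Depth is unknown, no spread between replicates can be given, and PBS samples were not analysed here, so no test between samples was possible and every value below is a description.

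GABA is the main inhibitory transmitter of the forebrain. GABA-A receptors are chloride channels built from several subunits, whose make-up sets where on the neuron they sit and how fast they act, while GABA-B receptors act through G proteins. Gephyrin and neuroligin-type adhesion proteins hold GABA-A receptors at the synapse, and chloride transporters set the direction of the current. c-Fos is made within minutes to hours of strong firing and binds DNA as part of AP-1, a pair of Fos and Jun family proteins. The title of the study concerns inhibition received around the cell body by neurons that express Fos.

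Peaks lay inside several of the long genes, far from their transcript starts. Of the 26 genes, 9 had a peak inside or within 100 kb (34.6%, exact 95% Clopper-Pearson interval 17.2 to 55.7, which covers counting error over genes only), where 21.8% of all protein-coding genes had one. A peak inside the gene was found in 6 of the 26 (23.1%, interval 8.97 to 43.6), against 5.52% of all. The 6 were Gabrb1 with 5 peaks, Gabra2 with 3, Gabrg3 and Gabbr2 with 2 each, and Gabra5 and Gphn with 1 each. Gabrr3, Gabbr1 and Slc6a11 had a peak only outside, and 17 genes had none. In all, 19 different peaks were linked to the genes, 14 inside and 5 outside, or 0.577% of the list.

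The genes were longer than most. They had a median length of 78.4 kb, against 17.4 kb for all protein-coding genes, and a longer gene is a larger target. Each gene was therefore set beside all protein-coding genes between 1.5 times shorter and 1.5 times longer than it. Summed over the 26 genes, the shares of those genes of like length came to 8.17 genes with a peak inside or within 100 kb, beside the 9 observed, and to 3.97 genes with a peak inside, beside the 6 observed. The first difference was 3.21 percentage points and the second 7.82. The interval of the observed share held the length-based share in both cases (31.4% and 15.3%), so at this number of genes neither count stood apart from genes of like length. The interval treats the 26 genes as independent, although several are neighbours on a chromosome, and the difference was not tested. The first difference changed sign with flanks of 50 kb (-0.563 points) or 200 kb (-1.85 points). With flanks of 10, 50 and 200 kb the genes with a peak numbered 6, 6 and 11, beside 7.55%, 14% and 34.4% of all protein-coding genes. All 6 genes with a peak inside were over 100 kb long (137.5 to 670.8 kb). Of the 11 genes over 100 kb these were 6, against 28.4% of all 2425 protein-coding genes of that length. None of the 15 shorter genes held one, but neither did most genes of that length, of which 2.61% (498 of 19098) held one; 0 of 15 allows a share of up to 20.0%, taken as 3 genes of the total.

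**Figure D1:**
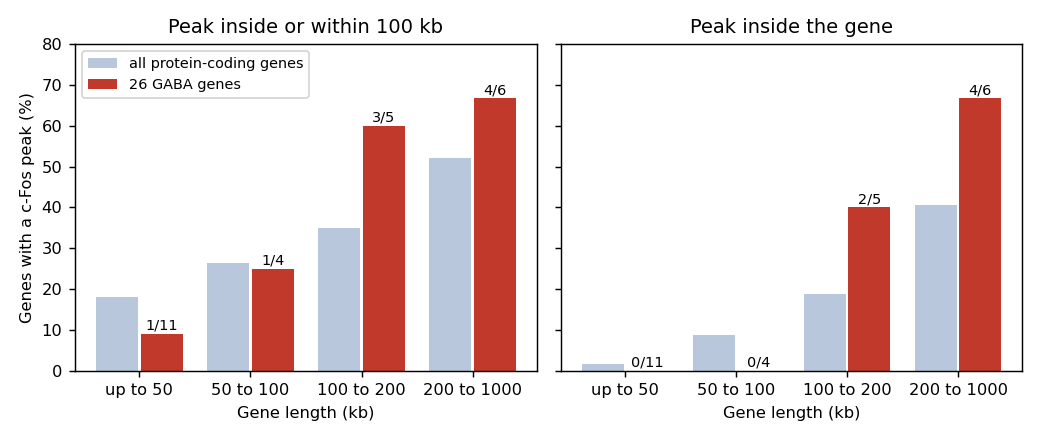
Share of genes with a c-Fos peak (y axis, percent) by gene length (x axis, kb), for all protein-coding genes (blue) and the 26 GABA genes (red), with the peak inside or within 100 kb (left) or inside the gene (right). Numbers over the red bars are genes with a peak of genes in that length class; from 200 to 1000 kb, 4 of 6 GABA genes held a peak inside, beside 40.5% of all genes of that length.

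The number of peaks per gene differed more than the number of genes. The 26 genes span 3626 kb in sum and held 3.86 peaks per Mb of gene, against 1.67 over all protein-coding genes. Among genes over 100 kb the values were 4.60 per Mb for the 11 GABA genes and 1.93 for all. Gabrb1 and Gabra2 carried most of this difference. Without Gabrb1 the density over the remaining genes of any length was 2.87 per Mb, without Gabra2 it was 3.15, and without both it was 2.00. Among the remaining genes over 100 kb the values were 3.52, 3.78 and 2.48 per Mb, in the same order. Both genes stayed in the values for all protein-coding genes. Holding 3 or more peaks, as these 2 did, was seen in 100 protein-coding genes (0.465%). That share is over genes of all lengths, with a median of 17.4 kb, whereas Gabra2 and Gabrb1 are 137.5 and 491.7 kb long. For each of the 2, the share of genes of like length with as many peaks is given below.

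Among the subunits of GABA-A receptors grouped as synaptic (Gabra2, Gabra3, Gabrb1, Gabrb2, Gabrg1 and Gabrg3), 3 of 6 held a peak, with 10 peaks in all; genes of like length gave 1.90 of 6 with a peak inside. Gabra2, an alpha subunit known from synapses on the cell body and axon initial segment of pyramidal neurons, lies on chromosome 5 from 70958392 to 71095849 (mm10) on the minus strand. Its 3 peaks ran from 71061197 to 71063220, from 71071596 to 71073131 and from 71078265 to 71079262. Their midpoints lay 33.6, 23.5 and 17.1 kb downstream of the transcript start, so all 3 fell within 16.6 kb of each other in the part of the gene nearest its start. The peaks were 2024, 1536 and 998 bp wide and separate, with at least 5133 bp between their edges. The nearest other protein-coding gene, Gabrg1, was at least 219.6 kb from each of them. Of 1738 protein-coding genes of like length, 11 (0.633%), Gabra2 included, held 3 or more peaks.

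The promoter of Gabra2 itself was not under a peak. The 250 bases before its listed start, chr5:71095850-71096099 on the minus strand (RefSeq, GRCm38.p6), are shown because the gene had the most peaks close to its start. On either strand they hold no TGANTCA, a loose form of the AP-1 site in which N is any base. They also hold no TGACGTCA, the letters of the related CRE site, on either strand.
Gabra2: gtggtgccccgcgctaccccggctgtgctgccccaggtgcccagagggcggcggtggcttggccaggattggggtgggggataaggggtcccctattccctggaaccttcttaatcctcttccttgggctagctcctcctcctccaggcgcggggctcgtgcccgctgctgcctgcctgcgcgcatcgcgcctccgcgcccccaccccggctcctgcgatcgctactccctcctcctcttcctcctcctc

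Gabrb1 encodes a beta subunit, the type that with alpha forms the GABA binding site. It spans 491.7 kb of chromosome 5 (71657921 to 72149572, plus strand) and held 5 peaks. The peak nearest the start, from 71760762 to 71762357, was centred 103.6 kb into the gene. It was followed by 1 at 268.8 kb (71926103 to 71927246) and by a group of 3 at 312.5, 314.3 and 329.6 kb (71969913 to 71970969, 71971149 to 71973293, and 71986755 to 71988319). The first 2 of that group were 179 bp apart at their edges. With peaks closer than 500 bp merged, Gabrb1 would hold 4, and the total over all 26 genes would be 18. A further start is listed for Gabrb1, which lies 61.6 kb before the first peak. Of 375 genes of like length, 14 (3.73%), Gabrb1 included, held 5 or more peaks, and their mean was 0.960.

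Gabrg3, a gamma subunit gene of 670.8 kb on chromosome 7 (56716463 to 57387215, minus strand), held 2 peaks that were far apart. They were centred 112.8 and 543.7 kb from the start (57273412 to 57275374 and 56842904 to 56844219). Genes of that length held 1.35 peaks on average, and 26.1% held 2 or more. Gabra3, Gabrb2 and Gabrg1 had no peak within 100 kb. Their nearest peaks were 600.2, 267.8 and 219.6 kb away, the last of these inside Gabra2. Of genes of like length, 42.2%, 41.2% and 29.0% had a peak inside or within 100 kb, so a gene without one was the more common case for all 3.

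On chromosome 5, 4 of the GABA-A subunit genes form a cluster in the order Gabrg1, Gabra2, Gabra4, Gabrb1. From the first base of Gabrg1 to the last of Gabrb1 it spans 1399 kb of chromosome 5 (70751047 to 72149572) and held 10 peaks, or 7.15 per Mb, against 1.22 per Mb over chromosome 5. Among 1827 non-overlapping windows of that length on the 20 chromosomes, 20 (1.09%) had 10 or more, the median was 1 and the highest 23. The cluster was singled out after its peaks were seen. Within it the peaks were uneven: 8 lay inside Gabra2 and Gabrb1, none inside Gabrg1 or Gabra4, and 2 between Gabra2 and Gabra4. Those 2 (71247941 to 71250029 and 71439647 to 71441341) lay inside no protein-coding gene, 153.1 and 344.6 kb beyond the start of Gabra2, and so were linked to none of the 26 genes.

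**Figure D2:**
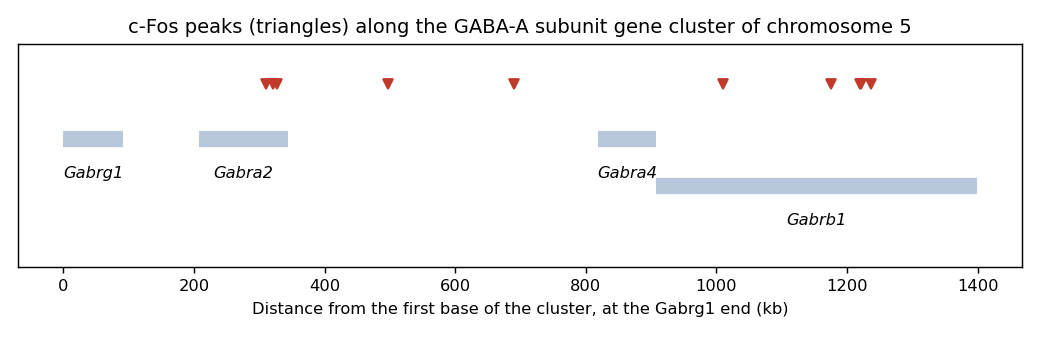
Position of the 10 c-Fos peaks (red triangles, at peak midpoints) along the cluster of 4 GABA-A subunit genes on chromosome 5, as distance in kb from its first base; blue bars are genes, drawn to scale, with Gabrb1 set lower where it meets Gabra4. Peaks gather at the right end of Gabra2, where it starts, and, in Gabrb1, 1 lies in its left part and 4 lie right of its middle, while Gabrg1 and Gabra4 have none.

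Gabra4 (minus strand) and Gabrb1 (plus strand) overlap by 388 bp at their 5′ ends and are transcribed in opposite directions. Gabra4, an alpha subunit of receptors outside synapses, had no peak within 100 kb, but its nearest peak, the first in Gabrb1, was 103.3 kb away, just past that limit. On the near side of the limit, the Slc6a11 peak lay at 98.4 kb. Of the 5 subunits found outside synapses or in few cell types, Gabra5 alone had a peak inside or within 100 kb, where genes of like length gave 1.27 of 5. Gabra5, an alpha subunit abundant in CA1 and known for tonic inhibition, lies on chromosome 7 (57407669 to 57591016, minus strand) beside Gabrg3. Its inside peak, from 57529171 to 57530307, was centred 61.3 kb from the outermost 5′ end of the gene. The start listed for Gabra5 lies farther in, and this peak was upstream of it, at -19.7 kb. A further peak, from 57680882 to 57682272, was 90.6 kb upstream of the outermost end and lay inside another protein-coding gene. Over the 874.6 kb from Gabrg3 to Gabra5 there were 3 peaks, or 3.43 per Mb, against 1.28 per Mb over chromosome 7. Gabra6, typical of cerebellar granule cells, had its nearest peak at 154.7 kb, Gabrd, the delta subunit of tonic receptors, at 254.9 kb, and Gabrp, found mostly outside the brain, at 353.8 kb. The neighbours Gabra6 and Gabrb2 on chromosome 11 thus shared an interval of 326.2 kb with no peak, where chromosome 11 held 1.26 peaks per Mb. Over all protein-coding genes the median distance to the nearest peak was 360.5 kb.

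The 3 genes of rho subunits, which are best known from the retina, held no peak inside, where genes of like length gave 0.132 of 3. Gabrr1 and Gabrr2 are neighbours on chromosome 4, with their nearest peaks at 304.3 and 372.0 kb. Gabrr3 was linked to a peak 86.0 kb beyond its end on chromosome 16 (59546881 to 59548588), which lay inside Crybg3 and had 3 genes nearer to it than Gabrr3.

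The pair of GABA-B receptor genes differed. Gabbr2, which encodes the subunit that couples to G proteins, is 329.4 kb long (chromosome 4, 46662318 to 46991714, minus strand) and held 2 peaks. They were centred 63.8 and 197.0 kb from its start (46927233 to 46928667 and 46794116 to 46795279), and 15.1% of genes of like length held 2 or more. Gabbr1, which encodes the subunit that binds GABA, is 28.3 kb long and held none. Its 1 linked peak, on chromosome 17 from 36957871 to 36959162, was 87.4 kb upstream, with 11 protein-coding genes nearer to it, and lay over the start of Znrd1.

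That peak was the 1 case among the 19 in which the RefSeq promoter table gave sequence under a peak. All 250 bases before the outermost listed start of Znrd1 (chr17:36958526-36958775, minus strand) were within it. In the sequence the capitals mark TGACGTCA, beginning 75 bases before the start.
Znrd1: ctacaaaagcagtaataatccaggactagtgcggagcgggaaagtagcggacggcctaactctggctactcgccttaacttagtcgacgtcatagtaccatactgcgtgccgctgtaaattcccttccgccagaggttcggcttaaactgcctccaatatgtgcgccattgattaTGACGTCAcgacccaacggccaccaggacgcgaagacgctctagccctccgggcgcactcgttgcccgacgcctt
These letters occurred in 1.79% of all 32851 promoter windows of 300 bases and in 7.40% of the 338 windows that overlapped a peak. For TGANTCA the shares were 7.81% and 17.5%, and for the stricter TGACTCA 5.20% and 15.4%.

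Of the 4 scaffold and adhesion genes, 1 had a peak inside or within 100 kb, where genes of like length gave 1.24. This was Gphn, which encodes gephyrin, the main scaffold under GABA-A and glycine receptors, and spans 467.4 kb of chromosome 12 (78217325 to 78684772, plus strand). Its inside peak, from 78350875 to 78351173, was centred 133.7 kb from the 5′ end. At 299 bp it was the narrowest of all peaks in the list, where the median was 1341.5 bp. A second peak (78739843 to 78741257) lay 55.8 kb beyond the end of the gene, closer to Fam71d and Mpp5. Genes of like length held a peak in 47.1% of cases. Nlgn2, a neuroligin of inhibitory synapses, Iqsec3, a gephyrin-binding exchange factor, and Slitrk3, a postsynaptic adhesion protein, had their nearest peaks 412.1, 506.8 and 1952 kb away. Slitrk3 stood farthest from any peak of the 26, and 6.97% of all protein-coding genes were as far or farther.

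**Figure D3:**
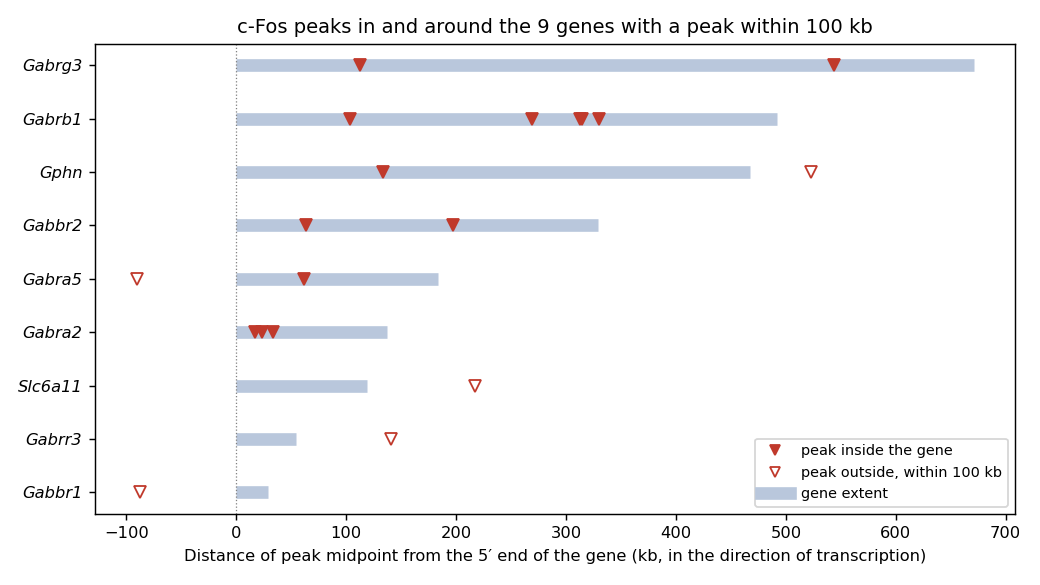
Midpoints of the 19 peaks linked to 9 of the genes, as distance in kb from the outermost 5′ end in the direction of transcription; blue bars are gene extents, filled triangles are peaks inside the gene and open triangles peaks outside it. No peak sits at a 5′ end, and the 3 peaks of Gabra2 lie closest to one.

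Neither chloride transporter gene had a peak within 100 kb, where genes of like length gave 0.493 of 2. Slc12a5, the neuronal exporter that keeps chloride low in mature neurons, had its nearest peak at 211.7 kb, and Slc12a2, the importer that prevails in immature neurons, at 511.5 kb. The promoter of Slc12a5 nonetheless holds the letters of an AP-1 site. TGACTCA, in capitals below, begins 162 bases before the outermost listed start (chr2:164960596-164960845, plus strand). It occurred in 5.20% of all promoter windows and, among the 34 windows of these genes, in this 1 only.
Slc12a5: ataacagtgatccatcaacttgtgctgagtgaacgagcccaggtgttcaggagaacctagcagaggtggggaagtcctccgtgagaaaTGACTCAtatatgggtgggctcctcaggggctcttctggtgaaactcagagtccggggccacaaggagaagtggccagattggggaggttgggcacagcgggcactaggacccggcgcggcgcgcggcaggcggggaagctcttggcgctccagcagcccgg
The looser letters TGANTCA were found in 1 more of the 34 windows, at Slc6a12 (chr6:121342324-121342573, plus strand), beginning 58 bases before the start.
Slc6a12: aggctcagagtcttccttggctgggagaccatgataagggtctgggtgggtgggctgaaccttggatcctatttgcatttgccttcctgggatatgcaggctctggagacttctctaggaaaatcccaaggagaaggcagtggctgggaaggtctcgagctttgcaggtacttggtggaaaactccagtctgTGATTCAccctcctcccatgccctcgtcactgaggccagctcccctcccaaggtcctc
Slc6a12 encodes a transporter of betaine and GABA, and its nearest peak lay 476.5 kb away. At both promoters the letters were thus present without a peak in the list.

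The 4 genes of GABA uptake and breakdown held no peak inside, where genes of like length gave 0.355. Slc6a11, an astrocytic GABA transporter on chromosome 6, was linked to a peak 98.4 kb beyond its end (114347571 to 114348947) that had 2 genes nearer to it. Slc6a13, a further GABA transporter, and Abat, the enzyme that breaks GABA down, had theirs at 434.2 and 317.3 kb. Slc6a13, Slc6a12 and Iqsec3 lie side by side on chromosome 6 in 173.5 kb without a peak, where chromosome 6 held 1.30 peaks per Mb.

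**Figure D4:**
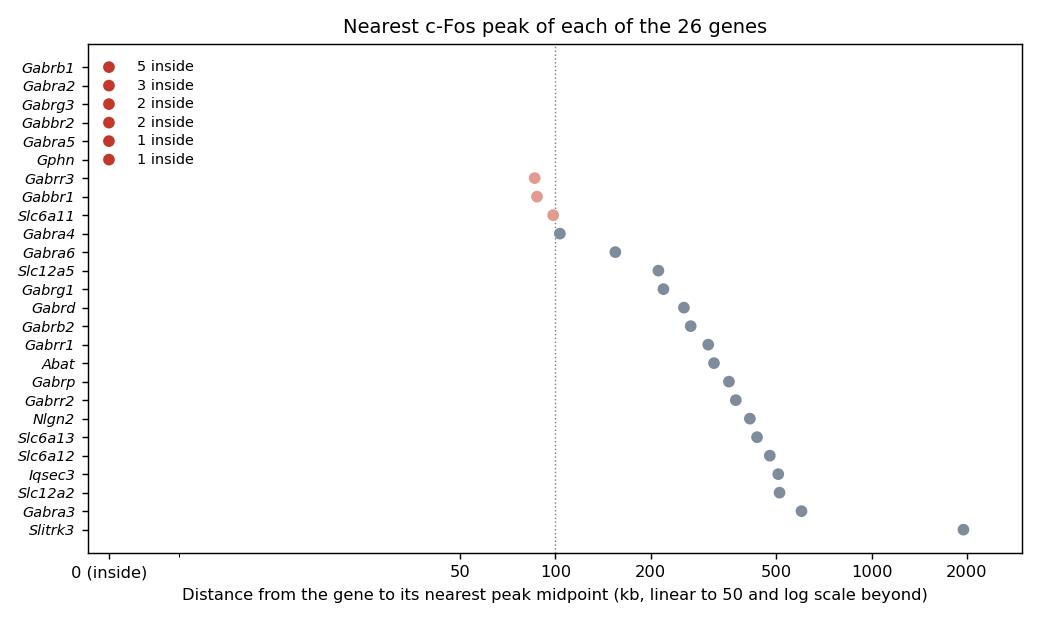
Distance from each of the 26 genes to its nearest c-Fos peak midpoint (x axis, kb, linear to 50 and log scale beyond, with 0 for a peak inside); dark red marks genes with a peak inside, with their number, light red a peak outside within 100 kb (dotted line) and grey a peak farther away. The 17 grey genes range from 103.3 kb for Gabra4 to 1952 kb for Slitrk3.

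Promoter windows were listed for 23 of the 26 genes, and none was under a peak. Only 1.21% of protein-coding genes with a window had one under a peak, and 0 of 23 allows a share of up to 13.0%, again as 3 genes of the total, so this count does not set the 23 genes apart. The 14 inside peaks were 17.1 to 543.7 kb from the nearest listed start of their gene, with a median of 118.6 kb. Measured along the gene from its 5′ end, they lay between 12.4% and 81.1% of its length, with a median of 31.0%, and 8 of 14 were in the part before the midpoint. Over the list, 1752 pairs of a peak and a protein-coding gene that held it were found, and strand was listed for 1343 of them. For these 1343 pairs the median was 47.3%, the quartiles were 22.0% and 70.2%, and 52.7% lay before the midpoint. Of the 14 inside peaks, 8 lay between those quartiles, and the difference in position was not tested. Their widths were near those of the whole list, with a median of 1375.5 bp and 8 of 14 between the quartiles of the list (1097 and 1698.75 bp). Each of the 5 outside peaks had at least 1 other protein-coding gene nearer to it, and 3 lay inside such a gene. An inside peak is at distance 0 from its gene, so by definition no gene can be nearer to it. Counting only the nearest gene of each peak therefore left the 6 genes with a peak inside and their 14 peaks.

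A list of 32 other genes of GABA signalling and inhibitory synapses was set beside these. Of these, 13 had a peak inside or within 100 kb (40.6%, interval 23.7 to 59.4), where genes of like length gave 9.79, and 6 had one inside, where they gave 4.65. Both length-based shares were within the intervals. Peaks were closest to a gene end at the genes of GABA synthesis and vesicle loading. Gad1 and Gad2, for the enzymes that make GABA, had promoter windows under a peak. They were 2 of the 26 genes of this other list that had a window, beside 1.21% of all protein-coding genes with one. Slc32a1, the vesicular GABA transporter, held a peak inside its 8.49 kb, as did 1.20% of genes of like length. The peaks at the Gad1 and Gad2 promoters and inside Slc32a1 were 3665, 2786 and 2617 bp wide, above the upper quartile of the list (1698.75 bp). The nuclear tag was mainly, not only, in excitatory neurons, and the list cannot show which cells gave these peaks. Among the other genes with a peak inside were long ones. Kctd16, a GABA-B receptor auxiliary subunit, spans 291.0 kb, and Stk39, a kinase that acts on chloride transporters, 261.7 kb. Ptprd, a presynaptic adhesion receptor, spans 2271 kb. Of genes of like length, 34.9%, 32.1% and 80% held a peak inside. For Ptprd these were 15 genes, with a mean of 2.73 peaks inside.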

How the data were processed

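CUT&RUN was performed on sorted CA1 nuclei in 4 groups of 3 replicates, grouped by sample title. The authors deposited 1 list of peak positions with 3 columns (chromosome, start and end) and no score, attached to 1 sample and named as replicated c-Fos peaks against IgG, so it was treated as a list of that group. The submitters' processing notes name SEACR 1.1, bedtools 2.27.1, Bowtie2 2.2.9 and Trimmomatic 0.36, and the builds mm10 and sacCer3. Settings, and the rule that made a peak replicated, are not given in the sources used, so peaks below an unknown threshold are missing.

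Positions are 1-based on mm10, the build of the RefSeq table (GRCm38.p6). A further 340 genes with a listed start under 3000000, apparently scaffold positions, were dropped. Strand and starts came from RefSeq promoter windows (250 bases before to 50 after a start), listed for 23 of the 26 genes. Exons were not used here. A gene's length class was all protein-coding genes within 1.5 times its length. Intervals are exact binomial at 95%, limits for a count of 0 are 3 counts of the total, and both treat neighbouring genes as independent. No test was run. Motifs were searched on both strands of the windows; TGANTCA includes TGACTCA. Alternatives were other flanks, peak sets, links and backgrounds. The counting was tested on simulated peaks (Python 3.11.15, pandas 2.3.3, NumPy 2.4.6, SciPy 1.17.1).

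The genes, the list of other GABA genes and the grouping by role were chosen with earlier results of these data known. All 26 genes are named; of the other list, those with a peak inside or within 10 kb are named, except where not reported here.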

Additional observations from a re-analysis of the deposited data

How the results depend on the processing

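No paired analysis was possible because the deposited list gives positions without replicate values, which also means that no replicate could be left out. The number of genes with a peak inside or within 100 kb was 9, beside 21.8% of all protein-coding genes. Over 8 alternatives it ran from 6 (flanks of 10 or 50 kb, or the nearest gene only) to 11 (flanks of 200 kb). The shares of all protein-coding genes were 7.55%, 14% and 8.63% in the settings with 6, and 34.4% in the setting with 11. The number with a peak inside was 6, beside 5.52% of all protein-coding genes, and 4 with the wider peaks only, beside 3.18%. With the wider peaks only, 8 genes had a peak inside or within 100 kb, beside 12.6% of all. That setting gave the largest difference from genes of like length (12.3 points). The 19 linked peaks became 11 with the wider peaks only, which keeps fewer peaks by construction, and 14 to 24 under the other 7 alternatives. The difference from genes of like length, 3.21 percentage points, turned to -0.563 with flanks of 50 kb and -1.85 with flanks of 200 kb; the cause was not tested. Under the other 9 alternatives it was 3.06 to 12.3. The interval of the difference at the main setting was -14.2 to 24.3. It belongs to that setting only, so it does not show whether the alternatives differ (for gene body only it was -6.29 to 28.4). Depth per library is unknown, so peaks too weak to be listed cannot be told apart from absent binding.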
